A study of Homo sapiens with 4 samples.

Results

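The ERK feedback genes described here were 10 human genes that are induced by the extracellular signal-regulated kinases (ERK) and that mostly act back on the same pathway. They were chosen by symbol: the dual-specificity phosphatase genes DUSP4, DUSP5 and DUSP6, the Sprouty genes SPRY1, SPRY2 and SPRY4, the Sprouty-related genes SPRED1 and SPRED2, and the ETS transcription factor genes ETV4 and ETV5. All 10 were among the 16376 genes of the table. RNA was sequenced from LASCPC-01, a human neuroendocrine prostate cancer (NEPC) cell line generated with NMYC and activated AKT1, so both groups carried these drivers. The labels give the genotype as WT. There were 2 libraries of cells given PBS and 2 of cells given fluoxetine, an antidepressant that inhibits serotonin reuptake. The study's text places the drug at 5 µM and 48 h for this experiment and the medium at 5% serum with insulin, whereas the labels give day 3 and no dose. The titles of the fluoxetine samples also carry the letters PP, which the labels do not explain. The data come from 1 cell line. The study describes its results in general as coming from repeated independent experiments, but neither the labels nor the sequencing methods say that the libraries of a group came from separate cultures. The p-values therefore measure only the spread between these libraries, which may be technical.

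In this pathway, growth factor receptors load RAS with GTP, RAS activates the RAF kinases, RAF activates MEK, and MEK activates ERK. Active ERK switches on genes whose products dampen it. DUSP proteins remove the phosphates from ERK, and Sprouty and SPRED proteins hold back the steps from the receptor through RAS to RAF. ETV4 and ETV5 carry the signal on as transcription factors. Because these RNAs depend on continuing ERK activity, they are widely read as a record of how active the pathway is. They do not measure phosphorylated ERK, which was not part of these data.

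The values were FPKM, a fragment count divided by gene length and library depth. The depth by which the authors divided, recovered from the values, was 32873603 to 34831389 reads per library. A read was worth between 0.00323 FPKM in SPRED1 and 0.0123 FPKM in DUSP5. Of the neuroendocrine markers, INSM1 (21.7 to 24.2 FPKM over the 4 libraries) and NCAM1 (44.3 to 52.0 FPKM) were abundant, whereas SYP (0.142 to 0.629 FPKM) and CHGA (0 to 0.0886 FPKM) were under 1 FPKM. The 7 markers of fibroblasts, blood and endothelium summed to 5.38 and 6.94 FPKM with PBS and to 5.55 and 5.58 FPKM with fluoxetine, mostly from COL1A1 and CD68, while PDGFRB, PTPRC and PECAM1 were at or below 0.0318 FPKM in every library. FPKM also varied with gene length to a different degree in each library. The correlation of a gene's deviation from its mean with log2 length, taken across genes, was -0.28 in fluoxetine replicate 1 and 0.18 in PBS replicate 2.

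Most of the feedback genes were expressed at a low level even without drug. The median of the 10 in the PBS libraries was 0.566 FPKM, against 4.22 FPKM over all genes of the table, and 6 of the 10 were under 1 FPKM. DUSP5 and SPRED2 lay above the median of all genes, at 7.37 and 4.56 FPKM. The genes that carry the signal to ERK were well expressed in the same cells. Over 25 cascade genes the median was 17.4 FPKM, and 16 were at 10 FPKM or more. MAP2K2, which encodes MEK2, had 53.7 and 51.6 FPKM with PBS, and MAPK3 (ERK1) had 12.6 and 12.5 FPKM. Over 24 other ERK output and inhibitor genes, the median was 5.89 FPKM, and 9 were at 10 FPKM or more.

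**Figure D1:**
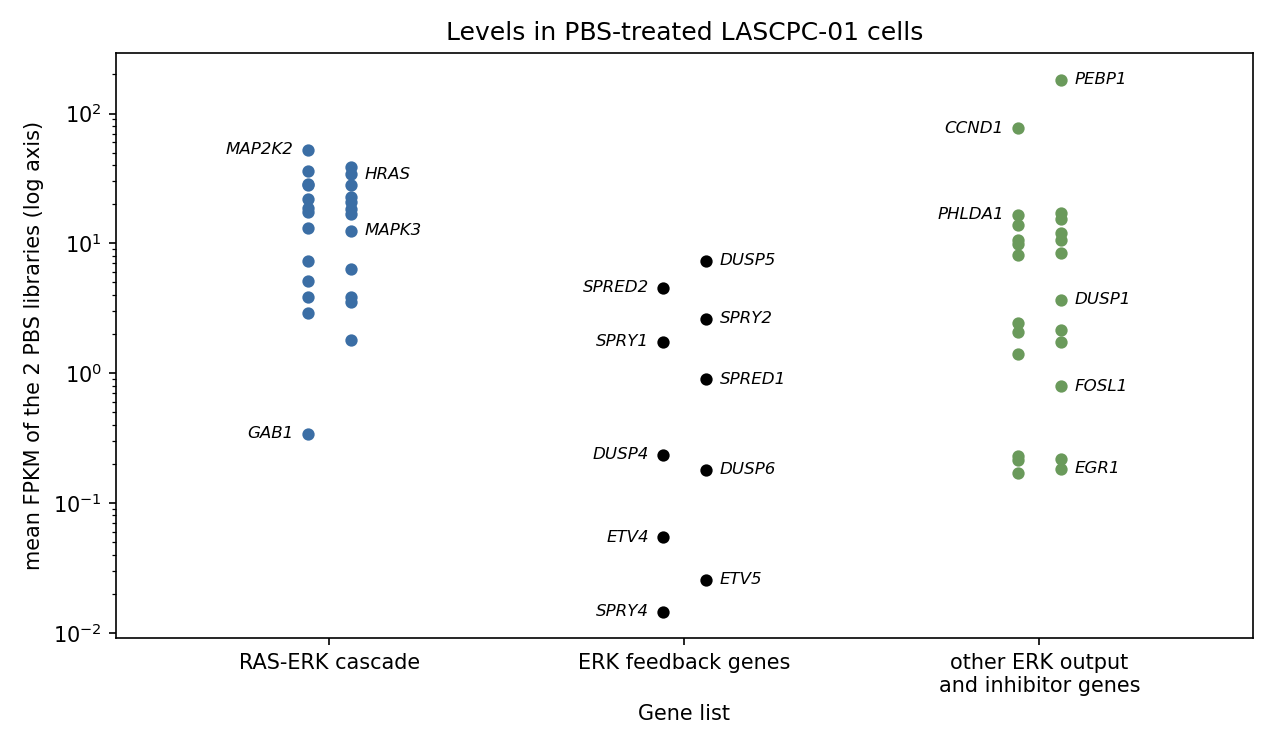
Mean FPKM of the 2 PBS libraries on a log axis for 25 genes of the RAS-ERK cascade, the 10 ERK feedback genes and 24 other ERK output and inhibitor genes, with 1 point per gene and selected genes named. The feedback genes lie between 0.0145 and 7.37 FPKM, mostly below the cascade genes.

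Among the feedback genes, the order of the levels in PBS started with DUSP5 at 7.37 ± 0.138 FPKM (SD, n = 2). SPRED2 followed at 4.56 ± 0.361 FPKM, SPRY2 at 2.61 ± 0.193 FPKM, SPRY1 at 1.74 ± 0.0715 FPKM and SPRED1 at 0.897 ± 0.00473 FPKM. These 5 did not overlap with each other in the PBS libraries. DUSP4 (0.234 ± 0.130 FPKM) and DUSP6 (0.180 ± 0.00707 FPKM) did overlap with each other. ETV4, ETV5 and SPRY4 came last, at 0.0543, 0.0257 and 0.0145 FPKM, where 6 reads or fewer stood behind each value. With fluoxetine, SPRY1 (0.938 ± 0.157 FPKM) and SPRED1 (0.866 ± 0.0736 FPKM) overlapped, and DUSP6 (0.242 ± 0.0393 FPKM) lay above DUSP4 (0.0908 ± 0.0390 FPKM) in both libraries.

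**Figure D2:**
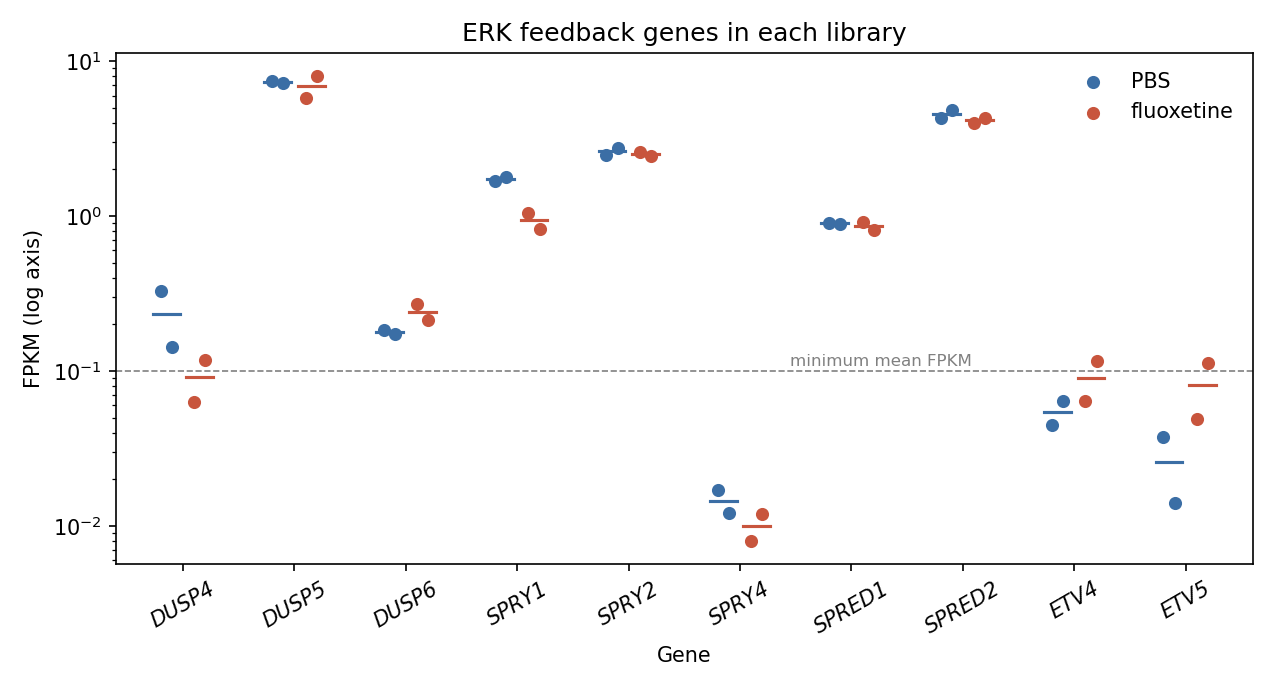
FPKM of the 10 ERK feedback genes on a log axis, with 1 point per library, a short line at each group mean, and a dashed line at the minimum mean of 0.1 FPKM for testing. SPRY1 is separated, with 1.69 and 1.79 FPKM in PBS against 1.05 and 0.827 FPKM in fluoxetine, while DUSP5, SPRY2 and SPRED1 overlap.

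Differences between fluoxetine and PBS were tested with limma on log2(FPKM + 0.1). The fit held every gene whose mean reached 0.1 FPKM, 12663 in all, and p-values were adjusted over all of them by Benjamini-Hochberg. The added 0.1 shrinks the log2 fold change of genes at low FPKM. Of the 10 feedback genes, 7 reached that level. SPRY4, ETV4 and ETV5 did not, and DUSP4 did only through its PBS libraries. None of the 7 had an adjusted p under 0.05 in limma, where 0.237% of all genes tested had one (0.213% lower and 0.0237% higher in fluoxetine). Of these 7, 1 gene, SPRY1, was lower at an unadjusted p under 0.05, as were 4.79% of all genes, while 3.73% were higher and 8.51% were past it in either direction. Limma voom on the recovered reads called none of the 10 either, where it called 51 of the 13982 genes in that fit. The median log2 fold change of the 7 was -0.11, beside -0.02 over all genes tested. Of the 7, 6 were below 0, beside 7156 of the 12663 genes tested. Over all 10, without the minimum FPKM, the median was -0.05. The groups did not overlap for 4 of the 7, against 41.6% of all genes tested. In 3 of these (DUSP4, SPRY1 and SPRED2) fluoxetine was the lower, a pattern seen in 24.8% of all genes, and in 1 (DUSP6) it was the higher, seen in 16.7%. DUSP4, which passed the minimum only through its PBS libraries, counts toward these 3 and toward the 6 below 0. In RNA from whole cultures, fewer cells that express a gene and less RNA per cell cannot be told apart.

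**Figure D3:**
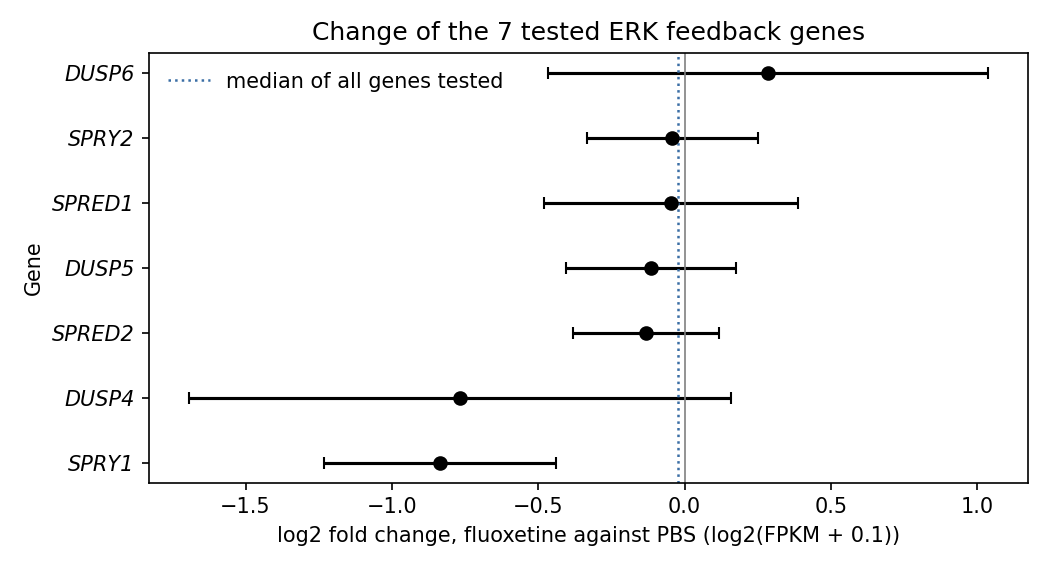
Log2 fold change of the 7 tested ERK feedback genes, fluoxetine against PBS, on log2(FPKM + 0.1), with 95% confidence intervals from limma that are not adjusted for multiple tests. The dotted line is the median of all genes tested, -0.02, and the interval of SPRY1, from -1.23 to -0.44, is the only one that does not reach 0.

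Sprouty proteins hold back RAS activation below growth factor receptors. SPRY1 stood at 1.69 and 1.79 FPKM with PBS against 1.05 and 0.827 FPKM with fluoxetine, from 166, 186, 109 and 86 reads. Both fluoxetine libraries were lower than both PBS libraries, and the mean was 1.86-fold lower. The log2 fold change was -0.84 (standard error 0.18, unadjusted p = 0.000616, adjusted p = 0.15 from limma), which did not pass the threshold over all genes. Its value put SPRY1 at the lowest 1.0% of the genes tested. Leaving out each library in turn gave log2 values from -0.99 to -0.68 for this difference.

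SPRY2, its paralogue, overlapped between the groups. Its FPKM was 2.48 and 2.75 with PBS against 2.6 and 2.46 with fluoxetine. The log2 fold change was -0.04, with a 95% interval from -0.33 to 0.25 (adjusted p = 0.95 from limma). SPRY1 was 0.683 and 0.652 times SPRY2 in the PBS libraries and 0.403 and 0.336 times SPRY2 in the fluoxetine libraries, a ratio that does not depend on the scaling of a library. The groups did not overlap for this ratio (exact permutation p = 0.333, two-sided, which is the smallest that 2 libraries against 2 allow). The same held for DUSP6 over DUSP5, higher in fluoxetine, and for DUSP4 over DUSP5, lower in fluoxetine. The ratio of SPRY1 to SPRY2 was chosen after the values of SPRY1 were seen. SPRY4, a further member, was covered by 4 and 3 reads with PBS against 2 and 3 with fluoxetine, so no difference was detectable at this depth. The ratio of its summed reads per depth was 0.694, with an exact 95% interval of 0.174 to 2.54 that covers counting error only. Summed over the 3 Sprouty genes, the cells had 4.18 and 4.55 FPKM with PBS and 3.66 and 3.30 FPKM with fluoxetine.

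**Figure D4:**
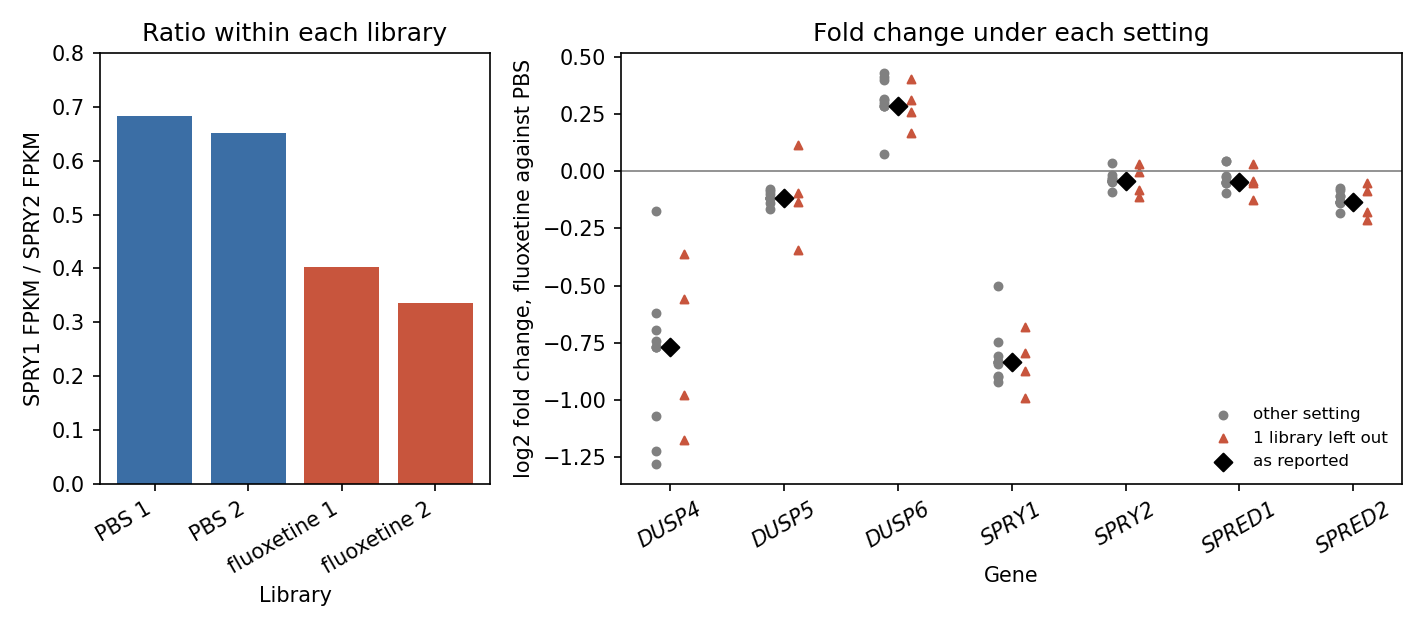
Left, SPRY1 FPKM divided by SPRY2 FPKM in each library, with bars from 0, 0.683 and 0.652 for PBS and 0.403 and 0.336 for fluoxetine. Right, log2 fold change of the 7 tested genes as reported (diamonds), under each other setting (circles) and with 1 library left out (triangles). SPRY1, DUSP4 and SPRED2 stay below 0, DUSP6 stays above 0, and DUSP5, SPRY2 and SPRED1 fall on both sides.

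The promoters of this pair are shown because SPRY1 and SPRY2 are close relatives with different values here. RefSeq (GRCh38.p14) lists 2 starts for SPRY1 and 3 for SPRY2, and the 250 bases before a start are given for both SPRY1 starts and the farthest upstream SPRY2 start. The letters CCGGAA, a core bound by ETS factors such as ETV4 and ETV5, were searched on both strands and are in capitals. They occur in 14.5% of the 35116 RefSeq promoter windows of this length.
SPRY1, upstream start, chr4:123396545-123396794, plus strand: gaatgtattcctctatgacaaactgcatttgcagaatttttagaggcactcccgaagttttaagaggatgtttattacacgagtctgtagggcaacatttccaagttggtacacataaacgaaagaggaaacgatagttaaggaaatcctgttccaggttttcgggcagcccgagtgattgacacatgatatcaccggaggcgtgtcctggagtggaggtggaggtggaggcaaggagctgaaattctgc
SPRY1, downstream start, chr4:123398136-123398385, plus strand: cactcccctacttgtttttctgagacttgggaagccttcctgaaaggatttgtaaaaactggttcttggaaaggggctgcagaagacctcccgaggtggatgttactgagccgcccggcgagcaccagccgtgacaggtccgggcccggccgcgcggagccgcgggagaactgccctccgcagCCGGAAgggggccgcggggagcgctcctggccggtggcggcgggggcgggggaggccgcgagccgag
SPRY2, upstream start, chr13:80341127-80341376, minus strand: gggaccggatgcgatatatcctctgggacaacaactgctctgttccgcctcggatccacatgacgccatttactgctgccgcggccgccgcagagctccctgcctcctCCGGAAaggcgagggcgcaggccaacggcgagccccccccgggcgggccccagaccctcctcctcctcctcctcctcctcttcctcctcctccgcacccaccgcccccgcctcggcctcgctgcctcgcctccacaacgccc
The SPRY1 window at the downstream start and the printed SPRY2 window each hold the ETS core once, 67 and 142 bases before the start. Both are rich in G and C, at 68.0% and 70.4%, against a median of 58.0% over all windows, and hold the GC box GGGCGG 2 times each, a sequence found in 42.6% of all windows. The SPRY1 window at the upstream start is 45.6% G and C and holds neither. The other 2 SPRY2 windows, at 62.4% and 41.2% G and C, hold neither as well. The AP-1 site TGANTCA (6.57% of all windows) and the cAMP response element TGACGTCA (1.65%) were searched on both strands as well and were in none of the 10 windows listed for DUSP6, SPRY1, SPRY2, SPRY4, SPRED1 and SPRED2. The ETS core was absent from every window of DUSP6, SPRY4, SPRED1 and SPRED2. Which of the starts were used in these cells cannot be read from FPKM per gene.

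The SPRED genes, whose proteins bring the RAS inhibitor neurofibromin to the membrane, had intervals that reached 0. SPRED2 had 4.31 and 4.82 FPKM with PBS and 4.01 and 4.29 FPKM with fluoxetine. The groups did not overlap, but the gap between them was smaller than the gap within either group. Its log2 fold change was -0.13 (95% interval -0.38 to 0.12, adjusted p = 0.730 from limma). SPRED1 had 0.9 and 0.894 FPKM with PBS and 0.918 and 0.814 FPKM with fluoxetine, and the groups overlapped. Its log2 fold change was -0.05, with an interval from -0.48 to 0.39. SPRED1 was 0.209 and 0.185 times SPRED2 with PBS and 0.229 and 0.190 times SPRED2 with fluoxetine, and this ratio overlapped between the groups.

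Among the phosphatase genes, DUSP5, which encodes a phosphatase of ERK in the nucleus, supplied nearly all of the signal. It made up 93.6% to 96.0% of the summed FPKM of DUSP4, DUSP5 and DUSP6 in the 4 libraries. DUSP5 stood at 7.47 and 7.27 FPKM with PBS against 5.78 and 8.0 FPKM with fluoxetine. The fluoxetine libraries lay on either side of both PBS libraries, and their reads, 498 and 690, gave a ratio per depth of 1.38 between them (exact 95% interval 1.23 to 1.56, counting error only), so they differed by more than counting error. The log2 fold change of DUSP5 was -0.11 (95% interval -0.41 to 0.18, adjusted p = 0.804 from limma). It turned to 0.12 without fluoxetine replicate 1 and was -0.35 without fluoxetine replicate 2.

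DUSP6, the cytoplasmic ERK phosphatase and a standard readout of the pathway, was low in all libraries. It had 0.185 and 0.175 FPKM with PBS and 0.269 and 0.214 FPKM with fluoxetine, from 22, 22, 34 and 27 reads. Both fluoxetine libraries were the higher, with a log2 fold change of 0.28 (95% interval -0.47 to 1.03, adjusted p = 0.815 from limma). DUSP6 overlaps the exons of an antisense gene, AC024909.2, on the opposite strand, and the strand setting of the counting is not given in the sources used here, so reads of the 2 genes may not be told apart.

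DUSP4, a nuclear phosphatase of ERK and other MAP kinases, had 0.326 and 0.142 FPKM with PBS and 0.0632 and 0.118 FPKM with fluoxetine. Both fluoxetine libraries were the lower, but the PBS libraries themselves held 78 and 36 reads, a ratio per depth of 2.29 (exact 95% interval 1.52 to 3.50, counting error only). The log2 fold change was -0.77 (95% interval -1.69 to 0.16, adjusted p = 0.613 from limma). It was -0.36 without PBS replicate 1, the library with most DUSP4 reads, and -1.28 with voom on the recovered reads. The size also depended on the pseudocount, with -0.17 at a pseudocount of 1 and -1.22 at 0.01. The highest and the lowest DUSP4 values were 0.326 and 0.0632 FPKM, and neither DUSP5 nor DUSP6 followed the same order over the libraries.

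ETV4 and ETV5, the PEA3-type ETS factors that respond to ERK, had 16 reads or fewer in every library. ETV4 had 0.0449 and 0.0637 FPKM with PBS and 0.0636 and 0.116 FPKM with fluoxetine, from 4, 6, 6 and 11 reads. The groups overlapped. The ratio of its summed reads per depth was 1.65, with an exact 95% interval of 0.714 to 4.03 for counting error. ETV5 had 0.0373 and 0.0141 FPKM with PBS and 0.0493 and 0.113 FPKM with fluoxetine, from 5, 2, 7 and 16 reads. Both fluoxetine libraries were the higher, and the ratio of its summed reads per depth was 3.19 (exact 95% interval 1.33 to 8.81), an interval on counting error between these libraries that takes no account of the spread between replicates. In a fit of all genes without the minimum FPKM, the log2 fold changes were 0.29 for ETV4 and 0.51 for ETV5, with adjusted p of 0.735 and 0.710 from limma. Over the settings that could include them, the adjusted p lay between 0.735 and 0.878 for ETV4 and between 0.636 and 0.710 for ETV5. In GENCODE 29, ETV4 shares exon sequence with DHX8 on the opposite strand and ETV5 with DGKG on its own strand, so their few reads are uncertain.

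The 10 genes lie on 10 different chromosomes of GRCh38, the build in the submitters' processing notes. In GENCODE 29, SPRY1 extends on chromosome 4 from 123396795 to 123403760, SPRY2 on chromosome 13 from 80335976 to 80340951 and SPRY4 on chromosome 5 from 142310427 to 142326455. DUSP4 lies on chromosome 8 from 29333064 to 29350668, DUSP5 on chromosome 10 from 110497838 to 110511544 and DUSP6 on chromosome 12 from 89347232 to 89353271. SPRED1 lies on chromosome 15 from 38252326 to 38357249, SPRED2 on chromosome 2 from 65310851 to 65432637, ETV4 on chromosome 17 from 43527844 to 43579620 and ETV5 on chromosome 3 from 186046308 to 186110318.

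The genes upstream of ERK were examined for the same contrast. Of 25 cascade genes, none had an adjusted p under 0.05 by limma or by voom (0.237% of all genes did by limma). In limma, 3 had an unadjusted p under 0.05, all lower in fluoxetine. Of all genes, 4.79% were lower at that threshold and 8.51% were past it in either direction. The groups did not overlap for 9 of the 25 with fluoxetine lower and for 2 with fluoxetine higher, beside 24.8% and 16.7% of all genes. Their median log2 fold change was -0.05, beside -0.02 over all genes. Near the low end of the list was ELK4, an ETS factor that ERK phosphorylates, with 3.92 and 3.83 FPKM with PBS and 3.15 and 3.44 FPKM with fluoxetine and no overlap (log2 fold change -0.23, standard error 0.12, adjusted p = 0.603 from limma). At the other end was HRAS, which encodes a RAS GTPase, with 33.2 and 35.1 FPKM against 37.7 and 36.4 FPKM (log2 fold change 0.12). MAPK3 overlapped between the groups, with a log2 fold change of -0.13 (95% interval -0.34 to 0.08).

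Other genes that ERK induces, and other inhibitors of RAS or ERK, were examined in the same way. Of 25 listed, 24 were in the table and were tested, none had an adjusted p under 0.05 by limma or voom (0.237% of all genes did by limma), and 4 had an unadjusted p under 0.05, all lower in fluoxetine (4.79% of all genes were lower and 8.51% were past it in either direction). The groups did not overlap for 12 of the 24, 9 with fluoxetine lower and 3 with it higher, beside 41.6% of all genes, 24.8% lower and 16.7% higher. Their median log2 fold change was -0.09. CCND1, which encodes cyclin D1, was high and overlapped, with 75.7 and 78.0 FPKM with PBS and 73.6 and 77.5 FPKM with fluoxetine (log2 fold change -0.02, 95% interval -0.18 to 0.13). PHLDA1 had 16.4 and 16.7 FPKM against 15.3 and 16.8 FPKM (-0.05, -0.23 to 0.13). DUSP1, a phosphatase of several MAP kinases, had 3.99 and 3.36 FPKM against 3.58 and 4.35 FPKM (0.11, -0.19 to 0.40). PHLDA1 and DUSP1 overlapped between the groups.

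The lowest of this list at 1 FPKM or more were IER3, an early response gene, with 8.51 and 8.37 FPKM with PBS and 5.97 and 6.94 FPKM with fluoxetine (log2 fold change -0.39, standard error 0.10, adjusted p = 0.322 from limma), and RASAL2, a RAS GTPase-activating protein gene, with 2.49 and 2.41 FPKM against 1.69 and 2.08 FPKM (-0.37, standard error 0.15, adjusted p = 0.541). The highest were EPHA4, an ephrin receptor gene, with 2.20 and 2.08 FPKM against 2.33 and 2.79 FPKM (0.24), and PEBP1, which encodes an inhibitor of RAF, with 191.6 and 173.4 FPKM against 195.2 and 199.2 FPKM (0.11). FOSL1, which encodes the AP-1 subunit FRA1, was singled out after its values were seen. It had 0.786 and 0.795 FPKM with PBS against 0.338 and 0.287 FPKM with fluoxetine. Its fold change on the log2 scale was -1.11 (limma standard error 0.25 and adjusted p = 0.167). EGR1, also under 1 FPKM and also picked after its values were seen, went the other way. It had 0.165 and 0.202 FPKM with PBS against 0.256 and 0.247 FPKM with fluoxetine. Its log2 fold change of 0.32 was the highest of the 24 genes tested (adjusted p = 0.787 from limma). Of the 24, 18 were below 0 and 6 above 0. On the log2(FPKM + 0.1) scale SPRY1 and FOSL1 had the lowest values of their lists, and both failed the adjustment over all genes. The place of SPRY1 depended on the setting. DUSP4 was lower than SPRY1 by the ratio of mean FPKM (0.388 against 0.538) and with voom (-1.28 against -0.90). At a pseudocount of 1, SPRY1 was the lower (-0.50 against -0.17).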

How the data were processed

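RNA of LASCPC-01 cells was sequenced from 2 PBS and 2 fluoxetine libraries, grouped by their treatment labels. The authors deposited FPKM, 1 value per gene and library. The submitters' processing notes name fastp, HISAT2, HTSeq and GRCh38. Annotation and strand setting are not given in the sources used here. The kit is TruSeq (stranded) in the labels and VAHTS in the study's methods.

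FPKM are not counts, so no count model was the main test. The differential test of the study's methods needs counts. Limma 3.58.1 in R 4.3.3 (eBayes with a variance trend) was run on log2(FPKM + 0.1). It took in the 12663 genes whose mean reached 0.1 FPKM, and p-values were adjusted over them by Benjamini-Hochberg. Read numbers were recovered as the smallest whole numbers, to within 0.004 plus rounding, that gave the FPKM ratios between the libraries and a gene length of whole bases. The depth was the value shared by 79 genes at their GENCODE 29 exon length. This solved 99.2% of genes above 0. True reads can be multiples of those given, and the implied lengths of the 10 genes were 0.704 to 1.20 times their GENCODE 29 exon lengths. Intervals on read ratios are Clopper-Pearson and cover counting error only. The limma fit and the read recovery were each run on simulated data. There the recovery was given the true length of every gene, so the simulation did not test the use of other lengths. In the real data, 135 of the 15945 solved lengths equalled the GENCODE 29 exon length. Tables and figures used Python 3.11.15, scipy 1.17.1 and matplotlib 3.10.9.

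The members, the lists and the tests were chosen with earlier results of these data known. Named were all members, any gene called on 2 lists (25 cascade genes and 25 other output and inhibitor genes), the 2 lowest and 2 highest of each list at a mean FPKM of 1 or more, and MAPK3, DUSP1, CCND1 and PHLDA1. Some genes this rule covers are not reported here. Alternatives were other pseudocounts, filters, scalings and variance models, the replicate number as a block, each library left out, voom on the recovered reads, and, chosen after seeing the data, removal of the gene length trend. DUSP4, DUSP5, ETV4 and ETV5 promoters were not analysed here.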

Additional observations from a re-analysis of the deposited data

How the results depend on the processing

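Of the 107 values computed for single feedback genes under other settings, 106 kept their direction or crossed 0 by a shift smaller than their standard error, and 1, DUSP5 without fluoxetine replicate 1, did not. None passed an adjusted p of 0.05, and the lowest was 0.0606, for SPRY1 with the replicate number as a block, whose highest was 0.989, without PBS replicate 2. No feedback gene, cascade gene or other listed gene was called in any setting run. The median log2 fold change of the feedback genes lay between -0.18 and -0.05. The number of genes called over the whole table, 30 of 12663 with the settings of the report, depended on the setting. It was 0 without the minimum FPKM and 0 without the variance trend, 16 with quantile normalization, 51 with voom on the recovered reads and 2 to 12 with 1 library left out, where the lone library of a group is assumed to vary like the other group. With the replicate block it was 64. The deviations of libraries sharing a number had a correlation of 0.035, so the numbers were not taken to pair the libraries. Depth limits SPRY4, ETV4 and ETV5, with 2 to 16 reads per library, and a minimum of 1 FPKM left 4 of the 10 genes. The cause of the moves in these counts was not tested.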
